A study of Mus musculus with 6 samples.

Results

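Type IV collagens, laminins and the proteins that join them in basement membranes were measured in mouse brainstem motor neurons, from total RNA. The 10 genes were chosen by name: Col4a1, Col4a2, Lama4, Lamb1, Lamc1, Nid1, Nid2, Hspg2, Sparc and Fn1. Their members on the array are the probe sets that the platform annotation maps to exactly 1 of these symbols. A probe set is a group of short probes read together as 1 value. This gave 22 probe sets of the 45101 in the table, between 1 and 4 for each gene, and the genes are 10 of 18193 with a probe set of 1 symbol.

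The study compared wild type (WT) mice with SOD1 mice, with 3 RNA samples of each genotype and 1 array per sample. SOD1 is the gene of copper-zinc superoxide dismutase. The sources used here give neither the form of it that the SOD1 mice carried, nor its promoter, nor the strain and age of either genotype. All 6 samples shared the brainstem source, the motor neuron label and 2 rounds of T7-based RNA amplification, and how the cells were collected is not said either.

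A basement membrane is a thin sheet of matrix on which endothelial cells, pericytes and smooth muscle cells of vessels rest, and which also lies beneath the meninges and around the brain's surface. Laminins, trimers of an alpha, a beta and a gamma chain, polymerise next to cell receptors, and type IV collagen forms a second, covalently linked network. Nidogens and the proteoglycan perlecan tie both networks together. In the brain, endothelial cells, mural cells, fibroblasts and astrocytes contribute chains to the vessel wall.

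Col4a1 and Col4a2 encode the alpha-1 and alpha-2 chains, which assemble together into a trimer, and both genes start from the same short stretch of chromosome 8 on opposite strands. Their promoter windows are shown because they are the member pair that lay lower together in SOD1. The window of Sparc, whose values in the groups overlapped, is set beside them. The sequences are from RefSeq (build GRCm38.p6), run from 250 bases before to 50 bases after the annotated gene start, and are written 5′ to 3′ on the gene's own strand. They lie at chr8:11312777-11313076 (minus strand) for Col4a1, chr8:11312555-11312854 (plus strand) for Col4a2 and chr11:55420031-55420330 (minus strand) for Sparc. Capitals mark GGGCGG or CCAAT read on either strand.
Col4a1: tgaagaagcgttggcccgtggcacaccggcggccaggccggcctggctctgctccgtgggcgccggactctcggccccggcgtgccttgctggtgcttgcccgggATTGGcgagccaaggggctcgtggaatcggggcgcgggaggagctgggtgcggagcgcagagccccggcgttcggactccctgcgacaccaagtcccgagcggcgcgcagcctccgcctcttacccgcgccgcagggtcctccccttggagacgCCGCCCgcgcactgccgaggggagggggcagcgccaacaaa
Col4a2: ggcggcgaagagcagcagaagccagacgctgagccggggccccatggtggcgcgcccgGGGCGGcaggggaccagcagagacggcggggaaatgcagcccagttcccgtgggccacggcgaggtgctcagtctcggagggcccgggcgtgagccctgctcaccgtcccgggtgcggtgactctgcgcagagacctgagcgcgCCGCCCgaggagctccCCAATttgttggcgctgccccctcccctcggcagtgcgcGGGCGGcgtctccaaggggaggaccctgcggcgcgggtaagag
Sparc: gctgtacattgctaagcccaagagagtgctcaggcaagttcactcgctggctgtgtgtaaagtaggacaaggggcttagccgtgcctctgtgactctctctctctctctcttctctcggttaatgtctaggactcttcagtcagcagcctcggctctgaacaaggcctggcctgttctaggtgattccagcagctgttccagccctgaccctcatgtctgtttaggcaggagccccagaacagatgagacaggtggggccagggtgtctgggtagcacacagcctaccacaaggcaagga

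The annotated starts of Col4a1 and Col4a2 lay 21 bases apart, and the windows shared 78 bases, which hold 1 GGGCGG. Of the 10 genes, 6 had a window in the table (Col4a1, Col4a2, Lamb1, Nid1, Hspg2 and Sparc). A few short motifs were searched on both strands. The motif GGGCGG was found at 1 place in the Col4a1 window, 3 in Col4a2, 2 in Lamb1, 1 in Nid1, 5 in Hspg2 and 0 in Sparc, and it occurs in 35.7% of 32851 windows of this length. The motif CCAAT was found at 1 place each in Col4a1, Col4a2, Lamb1 and Nid1 and not in Hspg2 or Sparc, against 37.4% of all windows. The motif TATAAA was in none of the 6, against 13.6% of all windows. GC content was 74.0% in the Col4a1 window, 73.7% in Col4a2, 63.7% in Lamb1, 64.7% in Nid1, 70.3% in Hspg2 and 55.3% in Sparc. The median over all windows was 52.7%. Hspg2, with a GC content near that of the collagen pair, had overlapping groups on its tested probe set, as Sparc did. These matches describe letters, not binding.

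Values are log2 of the quantile-normalised signal plus 16, and differences are SOD1 minus WT, with n = 3 arrays per group. The 27022 probe sets with a mean over the 40th percentile (log2 7.38) were tested together with limma. A probe set is said to have risen or fallen when its Benjamini-Hochberg adjusted p over all of them was under 0.05. A background level for each array, taken from 27 controls of bacterial genes (their 95th percentile), lay between 7.21 and 7.61. The labels do not say that samples came from separate animals, and p-values then measure the spread between these samples alone, which may be technical.

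The median signal of the arrays lay between 267 and 315. Xist, the transcript of the inactive X chromosome, read 14.71 and 14.63 on SOD1 replicates 1 and 2, 7.33 on SOD1 replicate 3 and 7.27 to 7.75 on the WT arrays, so sex may differ between the groups. Sod1 had 5 probe sets, 4 were tested and 0 passed by limma, and mouse probes need not read a transgene of another species. Of 10 motor neuron markers with a probe set, 9 were above background on all 6 arrays, among them Chat and Isl1, and Mnx1 was above it on 1 WT array and no SOD1 array. Of 15 endothelial markers 12 were above background on every array, as were 7 of 14 pericyte and smooth muscle markers and 10 of 15 microglial markers. In such bulk samples, fewer cells of a type and less RNA per cell cannot be told apart.

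Of the 22 member probe sets, 9 were tested, from 7 genes, and 13 lay below the filter, including every probe set of Lama4, Lamb1 and Nid2. One of the 9 fell, a Col4a1 probe set, and 0 rose, where 0.122% of all tested probe sets fell and 0.0629% rose. At an unadjusted p under 0.05, 2 of the 9 were lower and 0 higher, against 7.58% and 7.09% of all. The differences were negative for 5 of the 9 and positive for 4, against 50.5% negative over all tested probe sets. Their median was -0.01, the same as the median of all 27022. Every SOD1 array lay below every WT array for 2 of the 9, compared with 9.81% of all, and for 3 of the 13 below the filter, compared with 5% of all probe sets there. The opposite order was seen for 0 of the 9 and 0 of the 13, against 10.5% and 5.71% of all.

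**Figure D1:**
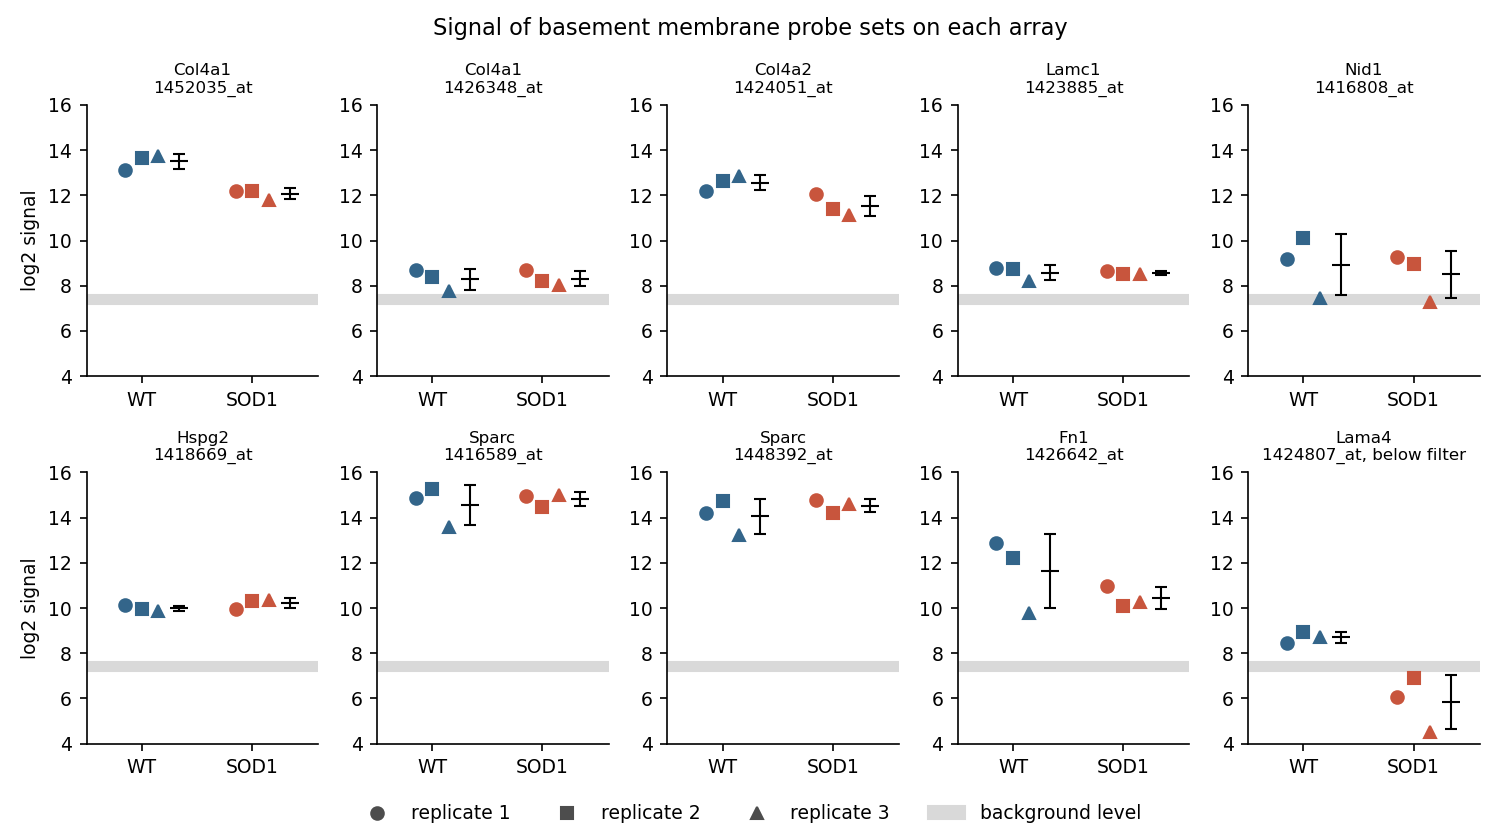
Log2 signal (vertical axis) of the 9 tested member probe sets and of Lama4 1424807_at on each WT (blue) and SOD1 (red) array, with the group mean ± SD (n = 3) as a bar and the range of the background level as a grey band. Col4a1 1452035_at, Col4a2 and Lama4 1424807_at have all SOD1 points below all WT points, and the WT points of Fn1, Nid1 and Sparc spread widest, with WT replicate 3 (triangle) lowest.

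Col4a1 fell in the SOD1 samples by the more strongly reading of its probe sets. On 1452035_at the WT arrays read 13.14, 13.64 and 13.75 (replicates 1 to 3), and the SOD1 arrays read 12.20, 12.21 and 11.78. All 3 SOD1 arrays were below all 3 WT arrays, and SOD1 replicate 3, the SOD1 array with Xist at the WT level, was the lowest. The group means were 13.51 ± 0.33 and 12.06 ± 0.24 (SD, n = 3), a difference of -1.45 ± 0.24 (SE, 95% interval -1.97 to -0.92), or 2.73-fold lower (limma, adjusted p = 0.0450). The adjusted p lies close to the threshold. The probe set passed in 7 of 13 other settings of the fit and in 0 of 6 fits that left out 1 array, with differences of -1.70 to -0.71 and of -1.64 to -1.30 (limma, adjusted p = 0.0238 to 0.314 and 0.0643 to 0.216). With the Xist signal of each array as a term, the difference was -1.70 ± 0.32 and did not pass (adjusted p = 0.0823).

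A second Col4a1 probe set did not show this difference. 1426348_at read 8.69, 8.40 and 7.77 in WT and 8.68, 8.21 and 8.03 in SOD1. The groups overlapped throughout, on arrays whose background level was 7.21 to 7.61. The difference was 0.02 ± 0.49 (95% interval -1.06 to 1.11, limma, adjusted p = 0.988), an interval that does not reach the -1.45 of the first probe set but does reach its interval's upper bound. Taken within each array, the first probe set minus the second went from 5.23 ± 0.77 in WT to 3.76 ± 0.23 in SOD1 (SD, n = 3). That shift of -1.47 had an exact two-sided permutation p of 0.1, the smallest that 3 against 3 arrays can give, and 0.2 when adjusted over the 2 genes with such a pair. The sign of the 1426348_at difference also turned with the processing, to -0.079 with values as deposited and -0.049 with array weights. Where the probe sets lie within the transcript was not analysed here.

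Col4a2, the partner chain, lay lower in SOD1 without passing the test. Its 1 probe set, 1424051_at, read 12.19, 12.64 and 12.84 in WT and 12.04, 11.40 and 11.15 in SOD1. The groups did not overlap, though SOD1 replicate 1 came close to WT replicate 1. The difference was -1.03 ± 0.29 (95% interval -1.67 to -0.38, limma, adjusted p = 0.159). It was negative in all 13 other settings (-1.37 to -0.95) and in all 6 fits without 1 array (-1.28 to -0.84), and passed in none of them by limma.

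**Figure D2:**
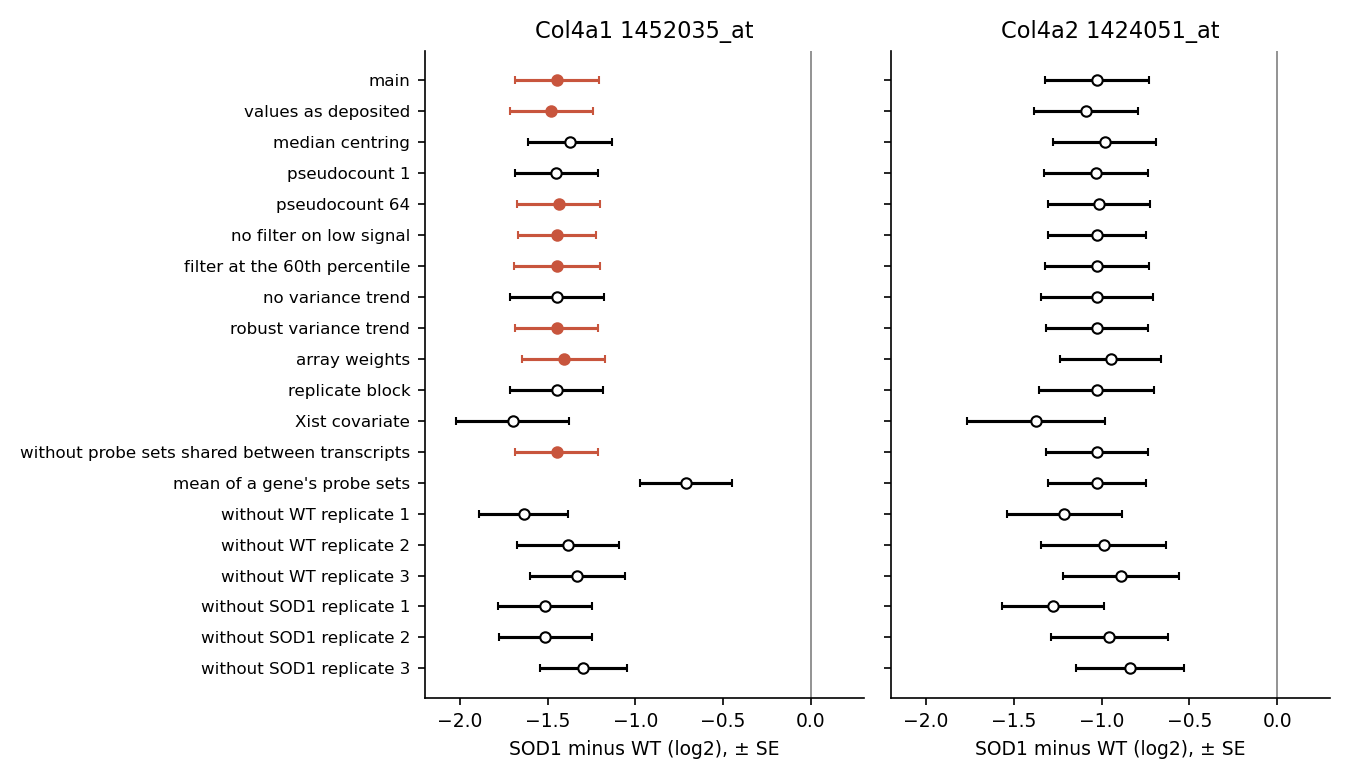
Difference SOD1 minus WT (log2, horizontal axis, ± SE) of Col4a1 1452035_at and Col4a2 1424051_at under each setting of the fit and without each array; filled red points passed (limma, adjusted p under 0.05) and open points did not. Every estimate lies below 0, Col4a1 is nearest 0 where its probe sets are averaged (-0.71), and no estimate for Col4a2 is filled.

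The 5 non-member probe sets with the profile over the 6 arrays most like that of Col4a1 1452035_at were those of Cfap20dc, Eln, Ccni, Meg3 and Epb41l4b. Likeness was the root mean square difference of the profiles, each centred on its own mean, among 23104 tested probe sets with 1 symbol. It was 0.133 for Cfap20dc, 0.151 for Eln (elastin, the elastic fibre protein of arteries), 0.177 for Ccni, 0.189 for the long noncoding RNA Meg3 and 0.190 for Epb41l4b. For Cfap20dc no SOD1 array was above background, so it was tested through its WT signal, WT was at least 1.84-fold higher, and its likeness rests on SOD1 values that are only a bound. Eln read 7.69, 7.55 and 7.54 on the SOD1 arrays, near background and above it on 2 of them, so its likeness also rests on low signal. The differences of Eln, Ccni, Meg3 and Epb41l4b between the groups ran from -1.66 to -1.23. Differences near that of Col4a1 follow from how these probe sets were picked. Among the members, Col4a2 was closest at 0.285, with 49 candidates (0.212%) closer still. The other Col4a1 probe set stood at 0.869, and the tested probe sets of Lamc1, Nid1, Hspg2, Sparc and Fn1 stood between 0.810 and 1.14, where 40.8% to 82.8% of the candidates were closer.

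The laminin chains alpha-4, beta-1 and gamma-1 can form 1 trimer, the form typical of vessel walls, and only the gamma chain gene had a tested probe set. Lamc1 1423885_at read 8.80, 8.73 and 8.19 in WT and 8.66, 8.51 and 8.52 in SOD1. The groups overlapped, with a difference of -0.01 ± 0.44 (95% interval -0.97 to 0.95, limma, adjusted p = 0.993). Its other probe set, 1423886_at, lay below the filter, was above background on 1 WT array alone and differed by -1.12 ± 0.87.

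Lama4, the alpha-4 chain gene, gave the largest fitted difference of all 22 member probe sets, at a signal too low to be tested with the others. 1424807_at read 8.46, 8.95 and 8.70 in WT and 6.08, 6.89 and 4.54 in SOD1. All WT arrays were above background and no SOD1 array was, so the SOD1 level is only a bound. The measured means were 8.70 and 5.84. Against the background level of the SOD1 arrays the WT mean was at least 2.52-fold higher. The fitted difference of -2.87 ± 0.77 is not a measured size for the same reason. Fitted with no filter on low signal it did not pass (limma, adjusted p = 0.174 over 45037 probe sets, and 0.108 to 0.273 over the settings that tested it). The second Lama4 probe set, 1424808_at, was at or below background on all 6 arrays, from 4.34 to 6.88.

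Lamb1, the beta-1 chain gene, was near or below background on all 4 of its probe sets, and none was tested. 1424114_s_at, the strongest of them, read 4.63, 6.96 and 7.81 in WT and 7.46, 6.62 and 7.81 in SOD1. It was above background on 1 WT array and 2 SOD1 arrays, and the groups overlapped. The other 3 were above background on no array. One of these, 1424113_at, had every SOD1 array below every WT array, a difference of -0.74 ± 0.57 within background, whose size moved with the pseudocount. No level of Lamb1 can be compared between the groups from these values.

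**Figure D3:**
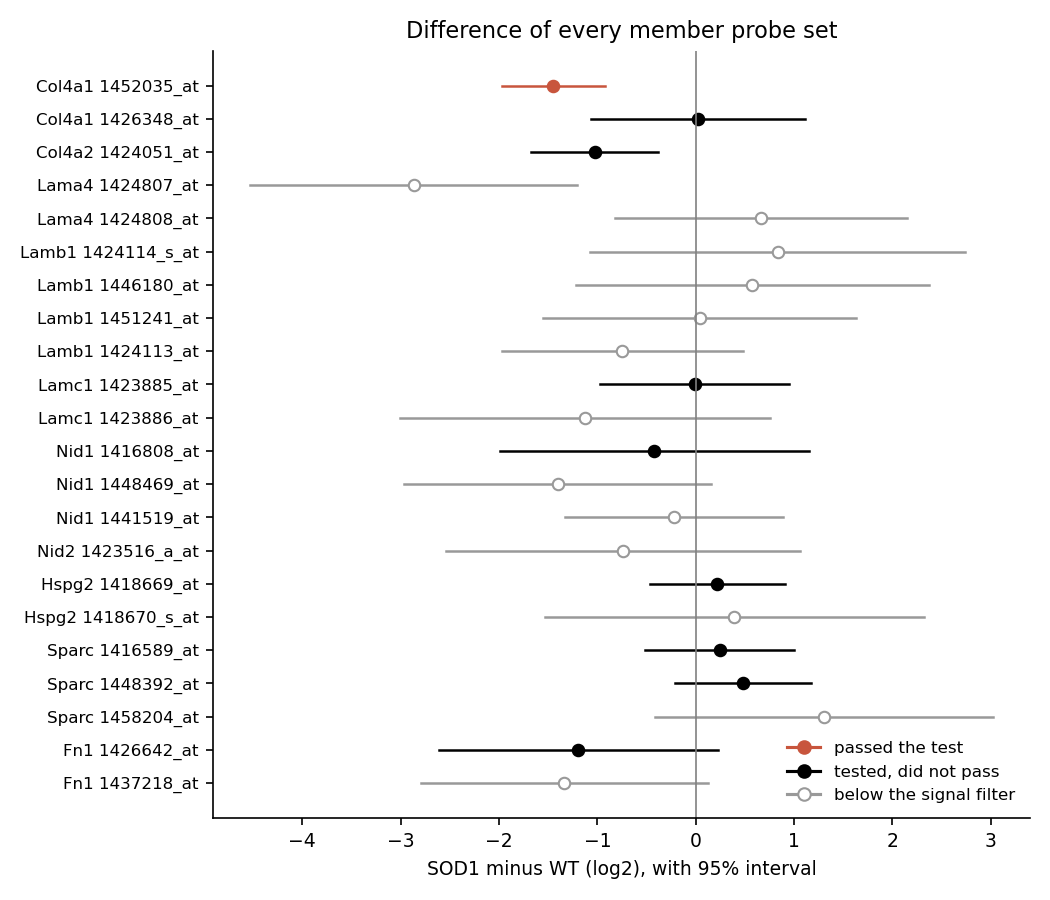
Difference SOD1 minus WT (log2, horizontal axis) of all 22 member probe sets with the 95% interval from limma (n = 3 arrays per group); the filled red point passed, filled black points were tested and did not pass, and open grey points lay below the signal filter. Col4a1 1452035_at lies at -1.45, Col4a2 at -1.03 and Lama4 1424807_at at -2.87, while both tested Sparc points lie above 0.

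Nid1 and Nid2 encode nidogens, which bridge laminin and type IV collagen. Nid1 1416808_at read 9.20, 10.11 and 7.45 in WT and 9.25, 8.94 and 7.30 in SOD1. Replicate 3 was the lowest in both groups, near background, and the groups overlapped. The difference was -0.42 ± 0.72 (95% interval -1.99 to 1.15, limma, adjusted p = 0.824). It turned to 0.17 without WT replicate 2 and to 0.18 without SOD1 replicate 3.

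A second Nid1 probe set, 1448469_at, lay below the filter and read 8.09, 7.99 and 8.12 in WT and 7.73, 6.42 and 5.83 in SOD1. The WT arrays stood close together and above every SOD1 array, of which 1 was above background, and the difference was -1.40 ± 0.72. The remaining Nid1 probe set was at or below background on all arrays. Nid2 1423516_a_at, also below the filter, read 7.32, 7.39 and 8.24 in WT and 5.59, 8.52 and 6.63 in SOD1. Its groups overlapped, because SOD1 replicate 2 read highest of all 6 arrays.

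Hspg2 encodes perlecan, the heparan sulphate proteoglycan of basement membranes. 1418669_at read 10.12, 9.97 and 9.88 in WT and 9.96, 10.31 and 10.36 in SOD1. The groups overlapped through SOD1 replicate 1, and the difference was 0.22 ± 0.31 (95% interval -0.47 to 0.91, limma, adjusted p = 0.784). This interval leaves out the point estimates of Col4a1 1452035_at and Col4a2. The second probe set, below the filter, differed by 0.39 ± 0.89.

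Sparc encodes a collagen-binding matricellular protein that assists the secretion and deposition of type IV collagen. 1416589_at read 14.87, 15.25 and 13.58 in WT and 14.97, 14.46 and 15.01 in SOD1. WT replicate 3 was the lowest array, the other 5 lay within a log2 unit, and the difference was 0.24 ± 0.34 (95% interval -0.51 to 1.00, limma, adjusted p = 0.780). Leaving out WT replicate 3 turned it to -0.25. The second probe set, 1448392_at, had the same order of arrays in WT, at 14.19, 14.74 and 13.23, against 14.76, 14.23 and 14.61 in SOD1, and differed by 0.48 ± 0.31 (adjusted p = 0.511). The shift between the groups of one Sparc probe set minus the other was -0.24 (exact two-sided permutation p = 0.2). The remaining one, below the filter, differed by 1.30 ± 0.79.

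Fn1 encodes fibronectin, a matrix glycoprotein made by fibroblasts, endothelial cells and the liver. 1426642_at read 12.90, 12.23 and 9.78 in WT and 10.99, 10.09 and 10.26 in SOD1. WT replicates 1 and 2 stood above all SOD1 arrays and WT replicate 3 below all of them, so the groups overlapped. The difference was -1.19 ± 0.65 (95% interval -2.61 to 0.22, limma, adjusted p = 0.422). With WT replicate 3 left out, Fn1 passed, at -2.12 ± 0.37 (adjusted p = 0.0499). It passed in none of the other settings, with the adjusted p over all of them from 0.0499 to 0.747. The second probe set, 1437218_at, was above background on no array.

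WT replicate 3 was the lowest WT array for 7 of the 9 tested member probe sets, against 37% of all tested probe sets. It was the highest WT array for the remaining pair, Col4a1 1452035_at and Col4a2. The summed signal of 13 fibroblast and meningeal markers was 63882 on WT replicate 3, compared with 176993 and 224777 on WT replicates 1 and 2 and 82834 to 113712 on the SOD1 arrays. WT replicate 3 was the lowest WT array for 12 of these 13 genes. This was not particular to the fibroblast list. The same array was lowest in WT for 12 of 14 tested microglial, 10 of 11 oligodendrocyte and 10 of 12 endothelial markers. It was lowest for 7 of 12 astrocyte markers, 7 of 12 pericyte and smooth muscle markers and 1 of 9 motor neuron markers. The part of any of these cell types in the Fn1, Nid1 and Sparc values was not tested.

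Markers of vessel wall cells lay lower in SOD1 beside the collagens. All 12 tested endothelial markers had a negative difference, with a median of -0.87, and their summed signal was 15519 to 29493 in WT and 8283 to 15751 in SOD1, where only SOD1 replicate 2 exceeded the lowest WT array. That array, WT replicate 3, summed to 15519 against 25368 and 29493, and it was the lowest WT array for 10 of the 12 genes. None fell on its highest-signal probe set by limma (4 lower and 0 higher at an unadjusted p under 0.05, against 7.58% and 7.09% of all). Cldn5, a tight junction protein, was at -1.80 ± 0.34 and Vwf, von Willebrand factor, at -2.69 ± 0.51; the other two were Flt1 and Ramp2. A weaker probe set of Flt1, a VEGF receptor, fell by 2.14 ± 0.34 (limma, adjusted p = 0.0352). The highest-signal Flt1 probe set was at -1.55 ± 0.42 (limma, adjusted p = 0.147). The remaining tested one was at -0.53 ± 0.52, with overlapping groups.

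Of 12 tested pericyte and smooth muscle markers, 2 fell, Acta2, smooth muscle actin (-5.02 ± 0.77), and Tpm2, a tropomyosin (-3.20 ± 0.49, limma, adjusted p = 0.0327 for both). The median was -1.69, 11 were negative, and the summed signal was 30157 to 87323 in WT and 6325 to 21230 in SOD1, without overlap. The genes of this list did not move alike. At an unadjusted p under 0.05, 6 were lower and 0 higher by limma: Acta2, Tpm2, Tagln, Myh11, Pdgfrb and Vtn. Of these, Tagln was above background on 3 WT arrays and 1 SOD1 array. Tagln was tested through its WT signal, so it could count only as lower. Myh11 and Pdgfrb were above background on 2 SOD1 arrays each. The same limit as for Tagln holds for Des (-1.56), which is in the median but not in this count. The groups overlapped for Rgs5 (-0.46), Kcnj8 (-0.41), Abcc9 (0.07), Notch3 (-0.55) and Cspg4 (-0.74), as they did for Vtn (-1.83). Acta2 read 15.48 on WT replicate 2 against 12.69 and 12.81 on WT replicates 1 and 3. The 13 fibroblast and meningeal markers were all negative, with a median of -1.55 and 0 past the test (limma, 5 lower and 0 higher at an unadjusted p under 0.05). Col3a1 was at -3.48 ± 0.80 and Col1a2 at -2.58 ± 0.67, beside Igf2, Col6a2 and Slc6a13, and WT replicate 3 was the lowest WT array for 12 of the 13. Only 2 SOD1 arrays were above background for Col3a1, so the size of its difference is not well measured. Its other tested probe set gave -0.17 ± 0.59. The part of these cells in the Col4a1 and Col4a2 differences was not tested.

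All 14 tested microglial markers were positive, with a median of 2.43, and 3 rose by limma (C1qa, Ctss and Tyrobp). WT replicate 3 was the lowest WT array for 12 of the 14. The summed microglial signal was 10949 there, 45959 and 31255 on WT replicates 1 and 2, and 112101 to 198578 in SOD1. Of 12 astrocyte markers 2 rose (Aqp4 and Gfap), with a list median of 0.40. The 11 oligodendrocyte markers had a median of 0.54 with 0 past the test, Ugt8a at 1.01 and Cnp at 0.44 (limma, 7 higher and 0 lower at an unadjusted p under 0.05). For 10 of the 11, WT replicate 3 was the lowest WT array. The 9 motor neuron markers had a median of -0.20 with 0 past the test, Ache at -1.06 and Slc18a3 at -0.996, beside Nefm (limma, 3 lower and 0 higher at an unadjusted p under 0.05). Blood markers, with 3 tested, had a median of -2.40, and WT replicate 2 stood apart: S100a8 read 12.64 against 5.38 to 7.86 on the other arrays, and Camp read 12.11 there, also the highest of 6. The 5 choroid plexus and ependymal markers had a median of -0.13, with Kcnj13 at -1.28 and Clic6 at 0.46, and their summed signal was 12154 on WT replicate 1 against 1478 to 3333 on the other arrays.

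**Figure D4:**
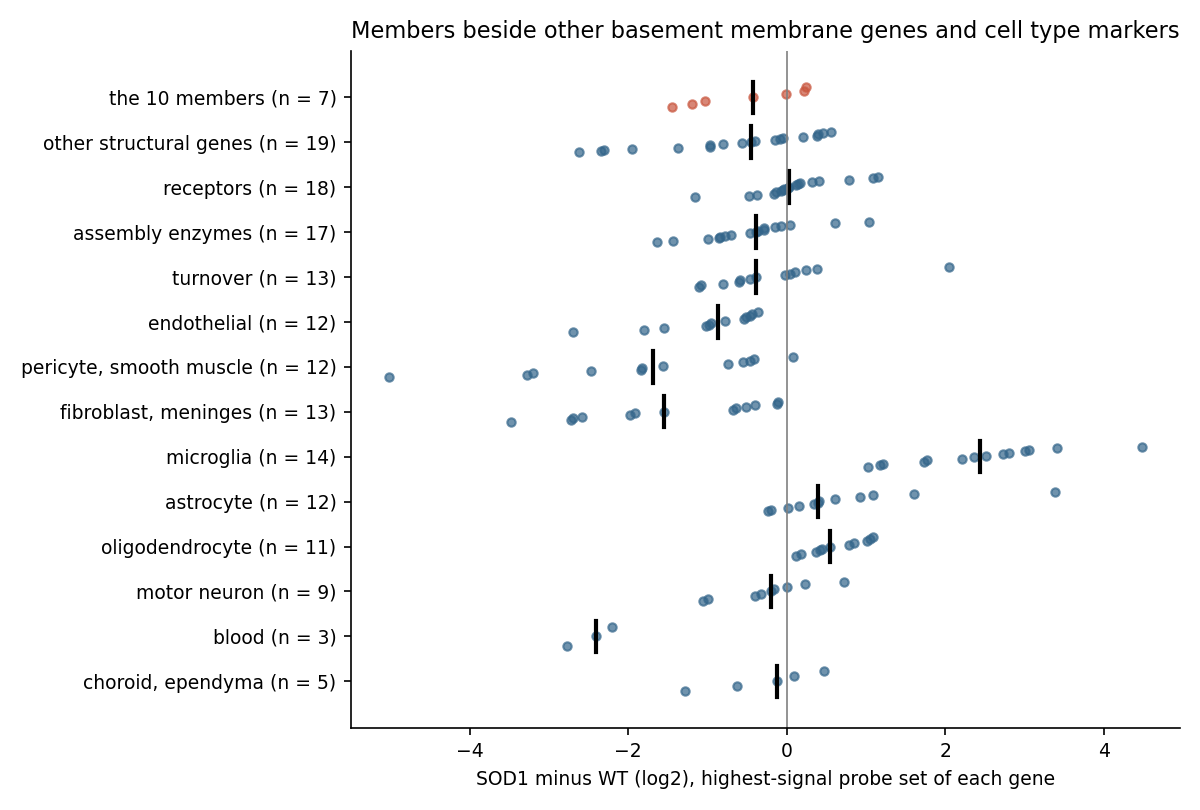
Difference SOD1 minus WT (log2, horizontal axis) on the highest-signal tested probe set of each gene, for the members, 4 lists of other basement membrane genes and 9 lists of cell type markers; a point is a gene, the black bar is the list median, and n is the number of genes tested. The members range from -1.45 to 0.24 around a median of -0.42, the vessel and fibroblast lists lie mostly left of 0, and the microglial list lies right of it.

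Beyond the members, 81 genes of basement membranes were examined, and 77 had a probe set. On the highest-signal probe set 67 were tested and 0 passed by limma. At an unadjusted p under 0.05, 14 were lower and 4 higher, against 7.58% and 7.09% of all tested probe sets. These shares also apply to the counts of each marker list above and each list below. The difference was negative for 44 and positive for 23, against 50.5% negative over all tested probe sets, with a median of -0.16. Every SOD1 array lay below every WT array for 18 of the 67 and above for 3, against 9.81% and 10.5% of all. Among the 18 are Col4a4, Col18a1, Tinagl1 and Npnt, each above background on 3 WT arrays and 1 SOD1 array. These genes were tested through their WT signal, so they could count only as lower.

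Among 19 other structural genes, 7 were lower and 0 higher at an unadjusted p under 0.05, and the median was -0.45. Of the 7, Col4a4, Col18a1 and Tinagl1 were each above background on 3 WT arrays and 1 SOD1 array. They were tested through their WT signal, so they could count only as lower, and the sizes of their differences are not well measured. They are also among the 14 lower of all 67 genes. Efemp1, a fibulin, was at -2.35 ± 0.46 (limma, adjusted p = 0.0814), Agrn, which encodes the proteoglycan agrin, at -0.97 ± 0.22 (adjusted p = 0.116) and Col4a5, another type IV collagen chain, at -1.37 ± 0.37 (adjusted p = 0.147). Efemp1 read 11.08, 10.84 and 10.13 in WT and 9.16, 8.21 and 7.64 in SOD1, and Agrn 13.67, 13.28 and 13.69 against 12.29, 12.58 and 12.87. Neither gene's groups overlapped. A second Col4a5 probe set gave -0.11 ± 0.50.

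The 18 tested receptor genes had a median of 0.02. At an unadjusted p under 0.05, 1 was lower and 3 higher, against 7.58% and 7.09% of all tested probe sets. The integrin subunit genes pointed both ways. Itga3, a partner of the beta-1 integrin in binding laminins, was at -1.16 ± 0.33 (limma, adjusted p = 0.157), while Itgb8, a subunit found on astrocyte endfeet, was at 1.09 ± 0.32 (adjusted p = 0.168) and its partner Itgav at 0.78 ± 0.26 (adjusted p = 0.220). The remaining one, Sdc4, a heparan sulphate proteoglycan of the cell surface, was picked out after its values were seen and was at 1.15 ± 0.48 with overlapping groups (limma, adjusted p = 0.311).

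The 17 genes of chain modification, secretion and crosslinking had a median of -0.39, with 3 lower and 0 higher at an unadjusted p under 0.05. Mia3, which loads bulky collagens into transport vesicles, was at -0.995 ± 0.22 (limma, adjusted p = 0.107). Its other tested probe sets gave -0.59 ± 0.32 and 0.01 ± 0.45. Tgm2, a transglutaminase that crosslinks matrix, was at -1.44 ± 0.40 and P4ha2, a collagen prolyl hydroxylase subunit, at -0.84 ± 0.29, and neither passed (adjusted p = 0.155 and 0.230). The other tested Tgm2 probe sets ran from -1.54 to 0.82.

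The 13 genes of turnover had a median of -0.39, with 3 lower and 1 higher at an unadjusted p under 0.05. Timp3, a metalloprotease inhibitor that stays bound to matrix, was at -1.11 ± 0.25 (limma, adjusted p = 0.115), with 3 other probe sets between -0.83 and 0.53. Timp2, another inhibitor, was at -0.60 ± 0.16 (adjusted p = 0.143), and its 4 other tested probe sets were also negative, from -1.16 to -0.31. Mmp9, a gelatinase that cuts type IV collagen and is known in fast motor neurons, was at -0.80 ± 0.26 (adjusted p = 0.210). The gene on the higher side, picked out after its values were seen, was Timp1, a secreted metalloprotease inhibitor, at 2.05 ± 0.69 (limma, adjusted p = 0.215). Timp1 read 10.53, 8.30 and 7.47 in WT and 11.55, 10.02 and 10.87 in SOD1, and the groups overlapped at WT replicate 1.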

How the data were processed

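RNA from brainstem motor neurons was measured on 6 arrays of 1 mouse Affymetrix design, 3 WT and 3 SOD1, grouped by sample title. Total RNA went through 2 rounds of T7-based amplification, per the labels' protocols. The values the authors deposited are signal intensities on a linear scale, without detection calls. Their 2% trimmed mean was 2500.02 on every array, as after scaling to a common mean. For the summarising algorithm and the scanner settings: not given in the sources used here. Repeated amplification shortens RNA, which lowers signals distant from the 3' end, and signals near background are noisy. The 3' control probe set of Actb read 4.20 to 5.14 log2 units above the 5' one over the 6 arrays. For Gapdh it was 3.28 to 4.68, and WT replicate 1 was the highest for both. The part of this in probe sets of 1 gene that disagree was not tested.

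Of 45101 probe sets, 64 were controls. Of the other 45037, the platform annotation gave 1 symbol for 34945 and several for 932, and 9160 are unnamed here. Intensities were quantile normalised, 16 was added, log2 was taken, and 27022 probe sets were kept, those whose mean exceeded the 40th percentile. Adding 16 understates the change of low signals. SOD1 was compared with WT by limma 3.58.1 in R 4.3.3 (two-sided, lmFit, then eBayes allowing the variance to follow the signal), and p-values were adjusted by Benjamini-Hochberg over all kept probe sets. Member probe sets below the filter have estimates from a fit without it. The number of arrays limits the precision. Tested on simulated data, the fit returned the changes without clear bias but did not call all of them, and false calls exceeded the nominal share in most draws; a first criterion for the share called was missed, and the simulation was redone with limma's moderated variances. Promoter windows came from RefSeq and figures from matplotlib 3.10.9.

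The members and gene lists were chosen with earlier results of these data known. Named were every member probe set, the 3 genes of each other basement membrane list and the 2 of each cell type list with the smallest p on the highest-signal probe set, any listed gene that passed, and the 5 profiles most like Col4a1. No set test was run. Alternatives were other scalings, pseudocounts of 1 and 64, no filter or the 60th percentile, other variance models, weights for arrays, a replicate block, an Xist term, other choices of probe sets, and each array left out.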

Additional observations from a re-analysis of the deposited data

How the results depend on the processing

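Over 168 values of the 9 tested member probe sets under other settings, 142 kept their direction and their side of the threshold, 12 lost the call, 1 gained one and 13 changed sign. The count of member probe sets past the threshold was 1 in the fit reported and 0 with median centring, a pseudocount of 1, no variance trend, the Xist term or probe sets averaged by gene. Without 1 array it was 0 to 1, the 1 being Fn1 without WT replicate 3. For the 81 other basement membrane genes the count was 0, and it was 1 with array weights and with the filter set at the 60th percentile (Efemp1 both times) and with the Xist term (Mmp2), and 0 to 1 without 1 array (Mia3 without SOD1 replicate 1). The cause was not tested. The 13 sign changes came from 4 of the 9, each with a difference smaller than its SE in the fit reported. Col4a1 1426348_at was at -0.079 with values as deposited, -0.049 with array weights, -0.28 with the Xist term and -0.71 as a gene mean, the last by construction the mean with 1452035_at. Without 1 array Col4a1 1426348_at ranged from -0.23 to 0.22, Lamc1 1423885_at from -0.20 to 0.10, Nid1 1416808_at from -1.15 to 0.18 and Sparc 1416589_at from -0.25 to 0.59. Over all probe sets 50 passed, 33 lower and 17 higher, and between 0 and 106 passed under the other settings, where none passed with no variance trend, with gene means or without WT replicate 2. Median centring called 22 lower and 19 higher. The 13 member probe sets below the filter were recomputed only where a setting changes their group means or lets them be tested, and 6 of those 143 values, from 4 probe sets, changed sign. Lamb1 1424113_at, within background, moved to -1.25 with a pseudocount of 1 and -0.33 with 64.

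With the replicate number as a block, the member count was 0 (Col4a1 1452035_at, limma, adjusted p = 0.0528, within 0.0238 to 0.314 over its settings), the other basement membrane count was 1 (Efemp1), and 76 probe sets passed in all. Same-numbered arrays did not deviate together over all tested probe sets (correlations of 0.028, -0.040 and -0.014). With the block the SE was smaller for Fn1 1426642_at (0.47 against 0.65) and Nid1 1416808_at (0.50 against 0.72). For Col4a1 1452035_at it was larger (0.27 against 0.24). Whether same-numbered samples were handled together was not tested, and the sample titles do not say. Low signal limits the rest: 6 of the 22 member probe sets were above background on no array and 7 on some.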

Other observations

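Among the other type IV collagen chain genes, picked out after their values were seen, Col4a4, the alpha-4 chain gene, had a WT mean of 8.82 ± 0.40 (SD of 3 arrays, log2) and a SOD1 mean of 6.20 ± 1.30. Only 1 SOD1 array was above background, so Col4a4 was tested through its WT signal and the size of its difference is not well measured. Col4a3, its head-to-head neighbour in the genome, was at 8.26 ± 0.33 in WT and 8.18 ± 0.55 in SOD1, a difference of -0.08 ± 0.51 (SE). Whether the differences of these chain genes depart from those of Col4a1 and Col4a2 was not tested.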
